A study of Homo sapiens with 2 samples.

Results

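The PAR-CLIP sites listed for HA-METTL14 in HepG2 cells formed 127 same-strand chains, in which several T-to-C sites follow each other along 1 strand. They were chosen by position: the middle base of each deposited 201 nt interval was taken as the site, the 31 sites of chromosome M and 447 nuclear sites in loci of 5 or more sites within 1000 nt of each other were left out, and same-strand sites within 100 nt were merged to the one with the highest score. A chain is a run of 3 or more merged sites on 1 strand with gaps of at most 10000 nt. The 127 chains held 487 of the 5151 merged sites, 9.45% (95% Wilson interval 8.69 to 10.3%), or 504 of the 5981 sites in the list.

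HepG2 is a human hepatocellular carcinoma line. It carried METTL14 with an N-terminal HA tag and a C-terminal EGFP from a lentiviral vector, was selected with puromycin and was sorted for high GFP, so the protein was overexpressed. The only group has 2 libraries, replicates 1 and 2, from cells kept in 200 µM 4-thiouridine over 16 h and then crosslinked at 365 nm in 3 rounds of 0.15 J/cm2. Both libraries share 1 score per site in the deposited list, so no value here has an error between replicates, and no control library was analysed here.

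METTL14 binds METTL3 and helps place RNA in the complex that writes N6-methyladenosine, with further subunits such as WTAP, VIRMA and RBM15 or RBM15B. The complex acts on nascent RNA in the nucleus, and the mark is known to be dense in long exons and near stop codons of messenger RNAs. PAR-CLIP reads crosslinked 4-thiouridine as a T-to-C change, so each site in the list marks a uridine with such changes. The score is the authors' own whole number, at least 3 in this list, of unknown unit. It cannot be read as occupancy, since the amount of each RNA was not measured.

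A gene name was given to a chain only where the place of the gene on hg19 is certain from general knowledge of that build, since no hg19 annotation was at hand. Each name was checked against GENCODE 29 for chromosome, for strand and for a gene at least as long as the chain. On this basis 102 chains lay in a single gene, 100 different genes in all, as FN1 and PIEZO1 each held 2 chains. Another 8 chains ran over a pair of adjacent genes on the same strand, and 17 stayed unnamed. Of the 102 chains in a single gene, 98 had a gene typed as protein-coding in GENCODE 29 and 4 a long noncoding RNA gene. The 98 include MTRNR2L1 and MTRNR2L3, which are nuclear copies of a mitochondrial RNA.

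The chain with most sites lay in FASN, the fatty acid synthase gene, on the minus strand of chromosome 17 from 80036877 to 80056066. Its 12 merged sites spread over 19190 nt, 95.9% of the gene's length. In 5′ to 3′ order their scores were 17, 46, 4, 9, 8, 18, 17, 6, 4, 4, 6 and 8. No single place dominated: the highest score was 46 and the median 8. The widest gap between neighbouring sites was 4041 nt, so sites recurred along the whole gene.

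The next in number were PLEC and FLNA, both genes of large cytoskeletal linker proteins. PLEC, which encodes plectin, held 10 merged sites on the minus strand of chromosome 8 from 144990445 to 145011204, with scores of 3, 3, 3, 6, 4, 10, 7, 3, 5 and 5. All of these were low, and the chain covered only part of the gene. FLNA, which encodes the actin crosslinker filamin A, held 8 on the minus strand of chromosome X from 153577347 to 153595098, with scores of 11, 23, 8, 34, 4, 3, 3 and 33. Here 3 sites scored above 20 and 3 scored 3 or 4.

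EEF2, the gene of the elongation factor that moves the ribosome along messenger RNA, also held 8 merged sites, on the minus strand of chromosome 19 from 3976735 to 3985370. They were packed into 8636 nt, 91.7% of the gene's length. The scores, 3, 9, 19, 9, 7, 155, 44 and 10, had a single peak toward the 3′ side. EEF2 is also a host gene of a small nucleolar RNA (snoRNA), and whether the peak lies on it was not tested.

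NEAT1, the long noncoding RNA that builds paraspeckles in the nucleus, showed the opposite profile. Its 7 merged sites, on the plus strand of chromosome 11 from 65190676 to 65212787, ran over 97.1% of the gene's length. Their scores were 3, 3, 7, 3, 4, 4 and 3, so every site lay near the lowest score of the list. AHNAK, the gene of a giant scaffold protein, held 7 on the minus strand of chromosome 11 from 62283970 to 62301106, with scores of 7, 3, 3, 4, 4, 7 and 6. SLC4A2, an anion exchanger gene on the plus strand of chromosome 7 from 150756731 to 150773587, had 7 with scores of 8, 6, 7, 4, 3, 5 and 3. SLC39A14, a zinc and iron importer gene of liver on the plus strand of chromosome 8 from 22262321 to 22278949, had 7 with scores of 11, 4, 3, 4, 4, 4 and 3. In these genes the chain came from several weak sites and not from a strong one.

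LAMA5, the gene of a basement membrane laminin chain, held 6 merged sites on the minus strand of chromosome 20 from 60892526 to 60913127, with scores of 7, 4, 12, 26, 3 and 9. LRP1, the gene of a large endocytic receptor, held 6 with scores of 6, 5, 4, 3, 12 and 7. HELZ2, a helicase gene that acts as a nuclear receptor coactivator, held 6 with scores of 4, 6, 7, 7, 15 and 5. Of all 127 chains, 79 had 3 merged sites, 22 had 4, 12 had 5 and 14 had 6 or more.

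**Figure D1:**
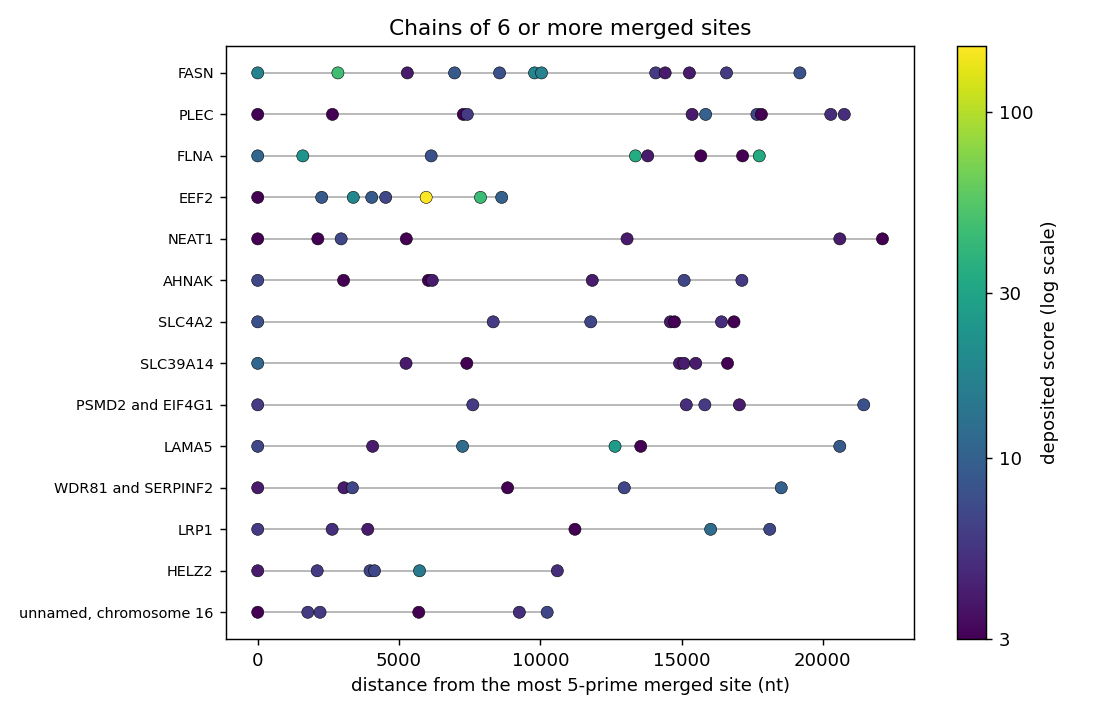
Positions of merged sites in the 14 chains of 6 or more merged sites, as distance in nt from the most 5′ site of each chain (x axis), with 1 row per chain and the deposited score as colour on a log scale. FASN, PLEC and FLNA carry 12, 10 and 8 sites, and the brightest point is the EEF2 site with a score of 155.

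Chains were a few kilobases long. The median span was 6349 nt (quartiles 3461 and 10539, n = 127), from 660 nt for an unnamed chain on the minus strand of chromosome 2 to 27103 nt for FN1. The 5 longest were an FN1 chain, NEAT1 with 22112 nt, SPTBN1 (spectrin) with 21605 nt, SCRIB and PUF60 with 21558 nt and PSMD2 and EIF4G1 with 21449 nt. The shortest after the one on chromosome 2 were C4B with 1018 nt, an unnamed chain on chromosome 19 with 1033 nt, SEPT9 with 1043 nt and ARHGDIA with 1171 nt. The rule bounds these values through its gap limit and its minimum of 3 sites, so they describe the chains and carry no test. Set against their genes, the chains in a single gene spanned a median of 31.8% of the gene's length (n = 102), with 9 above 90% and 24 under 10%.

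The 360 gaps between neighbouring merged sites had a median of 1856 nt (quartiles 681 and 4573). Short gaps were the most frequent: 110, or 30.6% (26.0 to 35.5%), were at most 1000 nt, 81 were 1001 to 2000 nt, 95 were 2001 to 5000 nt and 74 were 5001 to 10000 nt. Per nt of length the gaps grew rarer, but the last range still held 20.6% of them. The rule cuts the range at 10000 nt, so no natural limit is shown. Chains just inside the limit had widest gaps of 9990 nt (SCRIB and PUF60), 9938 nt (FN1), 9609 nt (SPTBN1) and 9396 nt (SEC61A1). Runs that missed it had deciding gaps of 10204 nt on chromosome 11, 10240 nt on chromosome 17, 10499 nt on chromosome 16, 10856 nt on chromosome 6 and 10880 nt on chromosome 1, with median scores from 4 to 8, while those just inside had median scores from 5 to 15.5.

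**Figure D2:**
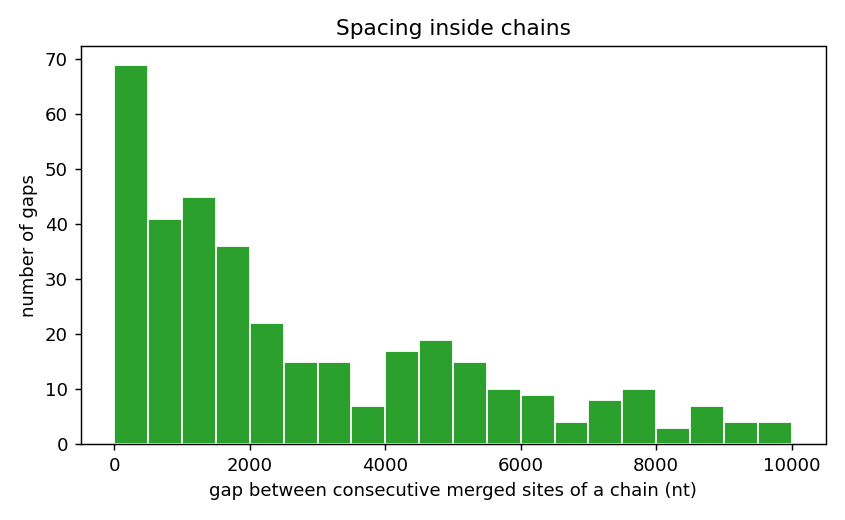
Number of gaps (y axis) by gap length in nt (x axis, bins of 500 nt) between consecutive merged sites in the 127 chains, 360 gaps in all. The first bin, up to 500 nt, holds 69 gaps and is the fullest; gaps of 100 nt or less cannot occur because such sites were merged.

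Under the main limits the spacing differed between the ends of the chains. For each chain the gap between the 2 most 5′ sites was compared with that between the 2 most 3′ sites. The rule used the gaps but not their order in the direction of the strand. The 3′ gap was the shorter in 81 of 127 chains, 63.8% (55.1 to 71.6%), and the 5′ gap in 46 (two-sided exact binomial test against 50%, p = 0.00242). The median 5′ gap was 2692 nt and the median 3′ gap 1340 nt. Gaps of at most 1000 nt stood at the 3′ end of 51 chains and at the 5′ end of 22. This comparison was chosen after the spacings had been seen, so its p-value is only descriptive. FN1 and PIEZO1 each gave 2 of the chains, which were counted as separate units.

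Examples of tight 3′ ends were MALAT1, whose sites lay 0, 5572 and 5789 nt from the most 5′ site, INTS1 with 0, 8854 and 9153 nt and TMEM43 with 0, 9360 and 9616 nt. DLC1 ran the other way, with 0, 265, 9334 and 13914 nt. The examples were picked after their values were seen. The direction was alike on both strands, with 38 of 61 plus chains (62.3%, exact binomial p = 0.0722) and 43 of 66 minus chains (65.2%, exact binomial p = 0.0187). It was alike in chains of 3 sites (51 of 79) and of 4 or more (30 of 48). Among chains built only from sites with a score of at least 5 the share was 51.7% of 60 chains (exact binomial p = 0.897), and with sites merged at 1000 nt it was 51.9% of 77 (exact binomial p = 0.82), so the asymmetry was not detectable there. Where the tight ends lie relative to stop codons was not tested, since that needs hg19 annotation.

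**Figure D3:**
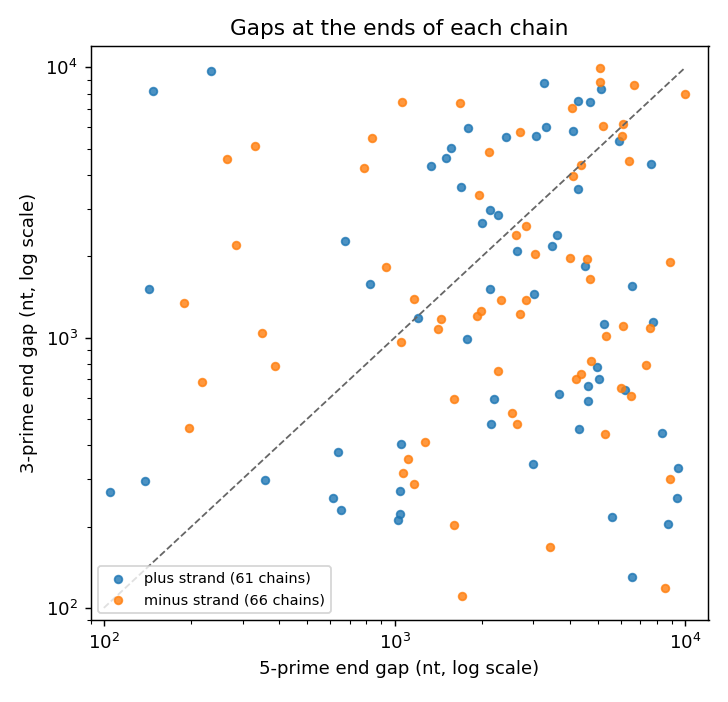
Gap between the 2 most 3′ merged sites (y axis, nt, log scale) against the gap between the 2 most 5′ merged sites (x axis, nt, log scale), 1 point per chain, coloured by strand, with the line of equality dashed. Of the 127 points, 81 lie below the line, where the 3′ gap is the shorter, 38 from plus-strand and 43 from minus-strand chains.

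The place of the strongest site showed no such direction. Of 110 chains with a single highest score, it stood at the 5′ end in 26, inside in 54 and at the 3′ end in 30, while 17 chains had a tie. Among the 56 with it at an end, 53.6% (40.7 to 66.0%) had it at the 3′ end (two-sided exact binomial p = 0.689). In the 64 untied chains of 3 sites it was at the 5′ end in 21, in the middle in 22 and at the 3′ end in 21. Either strand carried chains, 61 of them plus and 66 minus (48.0% plus, 39.5 to 56.7%, two-sided exact binomial p = 0.723).

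Few sites of the opposite strand lay inside the spans. Over 1006414 nt of summed span, 1 opposite-strand site was found, in the chain over MAST3 and PIK3R2. The 10000 nt on either side of the chains, 2540000 nt when summed chain by chain, held 13 opposite-strand sites beside 10 chains. Flanks shared by neighbouring chains, as between the FN1 chains, were counted for each chain. The 13 also include sites of other chains, as ADRM1 and LAMA5 lie in each other's flanks. The flanks are thus not an independent background for the spans. No test was made of this, and sites of the left-out loci are not counted: 0.787% of chains (0.139 to 4.33%) had an opposite-strand site in the span, against 4.26% of 141 chains when no locus was left out. A left-out locus lay inside a single chain, an unnamed one on chromosome 2 from 130816774 to 130825737, whose span held 5 such sites.

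Most scores in chains were low, as they were outside. The 487 merged sites had a median score of 6 (quartiles 4 and 11), against 5 (quartiles 3 and 9) for the 4664 merged sites outside chains. A score of 3, the lowest listed, was held by 17.7% (14.5 to 21.3%) of sites in chains and by 29.1% (27.8 to 30.4%) of those outside. Scores of at least 10 were held by 28.95% (25.1 to 33.1%) in chains and 24.2% (23.0 to 25.5%) outside, and scores of at least 100 by 3.70% (2.35 to 5.77%) and 5.92% (5.28 to 6.63%). In chains the share was thus the lower one at a score of 3, the higher one at 10 and above and the lower one at 100 and above. These values come from the list that chose the chains and carry no test. Of the 127 chains, 55 had no score above 10, and in 62 the highest score was at most 3 times the lowest.

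Only 11 chains held a site with a score of at least 100, and of the 8 of these that could be named, 6 lay in host genes of snoRNAs. Such RNAs guide the chemical modification of ribosomal RNA and are cut out of the introns of their hosts. TAF1D, a subunit gene of the RNA polymerase I factor SL1 that hosts 8 snoRNA genes in GENCODE 29, had the highest: its sites on the minus strand of chromosome 11 from 93464145 to 93466632 scored 7463, 362 and 3241. RABGGTB, a prenyltransferase subunit gene that hosts 3, scored 1016, 1200 and 231 on the plus strand of chromosome 1 from 76252834 to 76255232. In both chains all the sites were high.

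In the other hosts fewer sites were high, as in EEF2 above. ATP5F1B, the beta subunit gene of mitochondrial ATP synthase, scored 568, 3 and 4. SNHG12, a noncoding host of 4 snoRNA genes, scored 16, 171, 248 and 36, and EIF4A2, a translation initiation helicase gene that hosts 5, scored 15, 78 and 7. The remaining hosts had lower peaks, with highest scores of 32 in POR, 14 in PRRC2A and 8 in the chain over PSMD2 and EIF4G1.

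Together, 10 of the 110 named chains, 9.09% (5.01 to 15.9%), lay in genes with a snoRNA gene inside on the same strand. Over all 33162 protein-coding, lincRNA and antisense genes of GENCODE 29 the share was 0.917%. The 2 shares are not alike: the first counts chains, 8 of them over a pair of genes, and the second counts single genes. The second also takes in genes not active in HepG2 cells, so nothing is read from the difference. The highest score of a chain had a median of 201.5 in the 10 hosts (range 8 to 7463) and of 11 in the other 100 named chains (range 3 to 2009). A score of at least 100 was reached in 6 of the 10 and in 2 of the 100. These are descriptions, set out after the scores were seen. Whether the high sites lie on the snoRNAs themselves was not tested, for want of hg19 annotation.

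The 2 exceptions were MTRNR2L1 and MTRNR2L3, nuclear copies of the large mitochondrial ribosomal RNA. MTRNR2L1, on the plus strand of chromosome 17 from 22021967 to 22023420, scored 2009, 7 and 120, and MTRNR2L3, on the minus strand of chromosome 20 from 55933917 to 55935372, scored 370, 1553 and 4. The labels do not say how reads with several matches were placed, so reads of the mitochondrial RNA and of its copies cannot be told apart. The chains of C4B, a complement gene with a near-identical copy nearby, and of GAPDH, which has many processed copies, carry the same uncertainty.

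**Figure D4:**
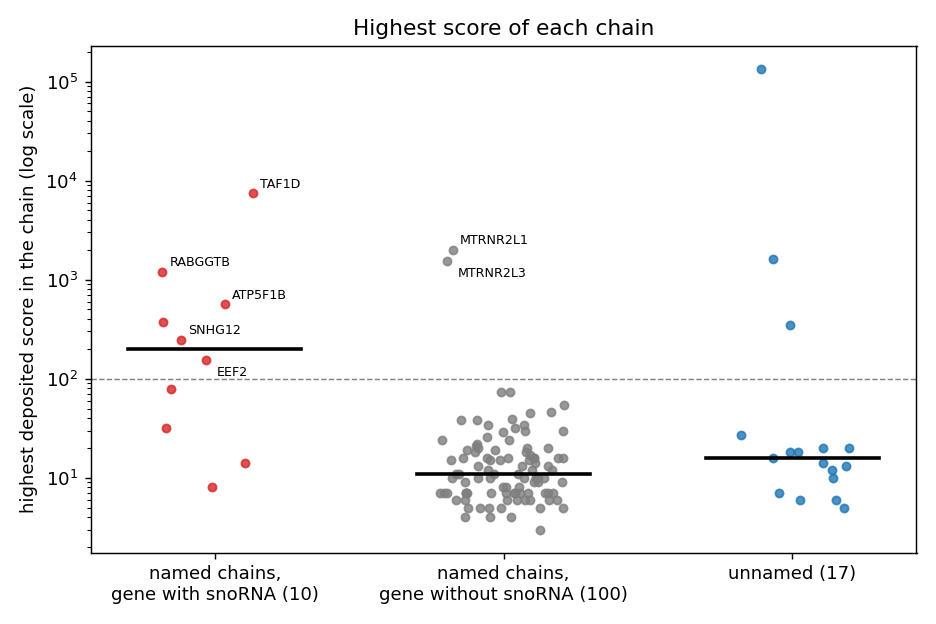
Highest deposited score of each chain (y axis, log scale) for 10 named chains in genes that hold a snoRNA gene, 100 other named chains and 17 unnamed chains, with the median of each as a black bar and a score of 100 as a dashed line. Of the named chains, 6 snoRNA hosts, MTRNR2L1 and MTRNR2L3 lie above the line; points above it that lie in a single named gene carry its name.

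Genes of proteins that liver cells secrete were among the chains. Of a list of 20 such genes, 5 held a chain. Over all 33162 protein-coding, lincRNA and antisense genes of GENCODE 29, 116 were given to a chain, 0.35%. That share also counts genes not active in HepG2 cells, and the chains were chosen from these sites, so nothing is read from the difference here or for the lists below. FN1, the fibronectin gene, had 2 on the minus strand of chromosome 2, 15016 nt apart. The more 5′ of them, from 216261949 to 216289051, scored 5, 3, 11, 30 and 3, and the other, from 216229692 to 216246933, scored 9, 6, 8, 38 and 19. The gene therefore held 10 merged sites, with a high site in each chain.

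The fibrinogen genes lay side by side on opposite strands of chromosome 4. FGB, the beta chain gene on the plus strand from 155487761 to 155491860, scored 7, 15, 24 and 10, and FGA, the alpha chain gene on the minus strand from 155506477 to 155510682, scored 7, 17 and 5. ALB, the albumin gene on the plus strand of chromosome 4 from 74276062 to 74283801, scored 19, 7 and 5. APOB, the gene of the main protein of low-density lipoprotein, scored 6, 7 and 3 on the minus strand of chromosome 2 from 21230436 to 21235527. AGT, the angiotensinogen gene, which was not on the list, scored 4, 13 and 12. A gene of the list without a chain is not shown to be unbound, since 4664 merged sites lay outside chains and were not named.

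Genes of lipid and sterol synthesis formed another set, grouped after the names were known. Beside FASN it included DHCR7, whose enzyme acts in the last step of cholesterol synthesis, with scores of 10, 10 and 7. SLC25A1, the gene of the mitochondrial citrate carrier, scored 4, 7 and 3, and POR, which passes electrons to cytochromes P450, scored 11, 4 and 32. BSG, the gene of a chaperone of lactate transporters, had even scores of 18, 18 and 17, while SLC16A3, a lactate exporter gene, scored 16, 5, 5 and 73.

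Of a list of 9 long noncoding RNAs, 3 held a chain (0.35% over all genes). MALAT1, an abundant RNA of nuclear speckles, scored 14, 7 and 38 on the plus strand of chromosome 11 from 65267592 to 65273381, 54805 nt past the end of the NEAT1 chain. KCNQ1OT1, the imprinted RNA antisense to KCNQ1, scored 3, 5 and 5. IGF2, a growth factor gene of another imprinted domain of chromosome 11, scored 3, 5 and 20. All of these are on the chain's own strand, and the sites of an antisense RNA were assigned by the strand in the list.

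Of 8 genes of the m6A writer complex, 1 held a chain (0.35% over all genes). It was RBM15B, whose product recruits the complex to RNA, on the plus strand of chromosome 3 from 51429318 to 51434617, with scores of 10, 3 and 4. Its highest score, 10, lay below 13, the median of the highest scores over all chains. The tagged METTL14 came from a cDNA, and no chain was given the name METTL14.

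Cytoskeletal and adhesion genes gave 12 chains with 55 merged sites and a median score of 6. They included TLN1 (talin) with 3, 6 and 7, PXN (paxillin) with 4, 10 and 4 and SPTBN1 with 23, 6, 8 and 39. The highest score of the whole group was the 39 of SPTBN1. Genes of folding and translocation at the endoplasmic reticulum gave 8 chains with 26 merged sites and a median score of 6. Among them CANX (calnexin) scored 13, 16 and 3, HYOU1 5, 3 and 7, and TAPBP (tapasin), whose chain ran over 95.2% of the gene's length, 3, 13, 30 and 15.

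Genes of transcription and splicing gave 13 chains with 42 merged sites and a median score of 6. POLR2A, the gene of the largest RNA polymerase II subunit, scored 6, 5, 10 and 6. PRPF8, at the core of the spliceosome, scored 11, 7, 3 and 6, and SRRM2, a speckle protein gene, 7, 4, 12 and 3. FOXA1, a pioneer factor of liver genes, scored 5, 3 and 7 on the minus strand of chromosome 14 from 38060550 to 38064254. The highest score of the group was 73, in INTS1, a subunit gene of the Integrator complex. These groups were made after the names were seen. Membrane transport genes had a median score of 5 (9 chains), lipid and sterol synthesis genes 8.5 (5 chains, 24 sites) and translation genes 10 (2 chains, 11 sites), beside 6 for all sites in chains.

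The 8 chains over a pair of genes show what a gap of 10000 nt can join. Among them were chains over PSMD2 and EIF4G1, WDR81 and SERPINF2, SCRIB and PUF60, EIF2B5 and DVL3, MAST3 and PIK3R2, CD2BP2 and TBC1D10B, and TAF10 and TPP1, all named outside the rule for single genes. The spans of the 8 went from 6325 to 21558 nt. Such chains take in more than 1 gene of the same strand. The chain over PSMD2 and EIF4G1 had 6 merged sites, as had 5 other chains.

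Chains were spread over 20 of the 24 nuclear chromosomes. The share of merged sites that lay in chains was 17.9% (14.1 to 22.4%) on chromosome 17, 16.2% (12.6 to 20.5%) on chromosome 19, 16.1% (12.4 to 20.7%) on chromosome 11 and 16.0% (11.5 to 21.8%) on chromosome 8. It was 6.67% (4.74 to 9.31%) on chromosome 1, which had the most merged sites, and 3.09% (1.43 to 6.58%) on chromosome 5. No chain was found on chromosome 10 among 161 merged sites, which allows a share of up to 1.86% when the limit is set at 3 counts of the total, on 13 among 86 (up to 3.49%), on 18 among 69 (up to 4.35%) or on Y among 23 (up to 13.0%). Intervals and limits cover the counting of sites only, and sites of 1 chain are not independent.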

How the data were processed

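The submitters' processing notes name hg19 as the build and list Bowtie 1.1.2, cutadapt 1.13 and FastQC 0.11.5; the deposited site names carry the caller name rbsSeeker. The deposited score is 1 whole number per site over both libraries; no label gives its unit, the threshold or how the libraries were pooled, and read depth is unknown. Chains were built with Python 3.11.15 and pandas 2.3.3 and the chain script was tested on simulated sites. Shares carry Wilson intervals, and directions were tested with exact binomial tests (scipy 1.17.1), with chains as units. The members and lists were chosen with earlier results of these data known. Chains picked by rule were the 10 with most merged sites (ties by longer span), the 5 longest and the 5 shortest. Added to these were the 5 with the highest summed score and those next to the gap limit. Not all of them are given in full, as some have only a span, a gap or a number of sites. Other chains serve as examples of lists and groups. Coordinates are 1-based on hg19. GENCODE 29 is on GRCh38, so only its names, strands, gene lengths and the snoRNA genes within genes were used, and no coordinates were converted. Sequences at the sites were not analysed here, and some named genes are not reported here. Alternatives varied merging, gap limit, chain size, left-out loci and lowest score.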

Additional observations from a re-analysis of the deposited data

How the results depend on the processing

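The chain rule sets most of the descriptive values, which moved as its limits did. The 127 chains became 48 with at least 4 merged sites, 60 from sites with a score of at least 5 and 11 with at least 14; with the limit at 20000 nt there were 169, and each of the 127 was overlapped by one of them. The share of merged sites in chains, 9.45%, was 10.8% with merging at 30 nt, 12.8% without merging, 6.64% and 13.0% with gaps up to 5000 and 20000 nt, 4.85% with at least 4 merged sites, 8.35% with loci of 3 or more sites left out, 11.01% with none left out, and 7.62% and 3.56% at scores of at least 5 and 14. The median span, 6349 nt, was 4476 nt without merging, 4306 and 12300 nt with gaps up to 5000 and 20000 nt, 10853.5 nt with at least 4 merged sites, and 5632.5 and 2488 nt at scores of at least 5 and 14. The median gap, 1856 nt, was 1503 nt with merging at 30 nt, 1043 nt without merging, 1261 and 2823 nt with gaps up to 5000 and 20000 nt, 2290.5 nt with loci of 3 or more sites left out, 1322 nt with none left out and 1080 nt at scores of at least 14. The median score, 6, was 7 without merging and with no locus left out, and 9 and 26 at scores of at least 5 and 14, as these minimums must give. The share of chains with an opposite-strand site, 0.787%, was 4.26% with no locus left out, 2.08% with at least 4 merged sites, 1.78% with gaps up to 20000 nt, 1.33% with merging at 30 nt, 1.06% without merging and 0.885% with loci of 3 or more sites left out. It was 0% with gaps up to 5000 nt (0 of 95 chains, which allows up to 3.16%) and at scores of at least 5 (0 of 60, up to 5.00%) and 14 (0 of 11, up to 27.3%). The share of plus chains, 48.0%, changed side to 54.2% with at least 4 merged sites and 53.3% at scores of at least 5 (exact binomial p = 0.665 and 0.699). The share of chains with the top score at the 3′ end, 53.6%, changed side to 48.9% without merging, 46.2% with gaps up to 20000 nt and 40.9% at scores of at least 5 (exact binomial p = 0.915, 0.62 and 0.523). Neither differed from 50% in any setting. The share of chains with the shorter 3′ gap, 63.8%, kept an exact binomial p of at most 0.0141 in 8 of 11 settings. All of these settings were chosen after the spacings were seen. The share was 62.5% with at least 4 merged sites (exact binomial p = 0.111), 51.7% at scores of at least 5 and 51.9% with merging at 1000 nt. Every setting rebuilt chains from the same sites by their gaps. The p-values are therefore only descriptive, and the number of settings is not independent support. The cause was not tested. No paired analysis was possible because all samples form 1 group, and no replicate could be left out, as both share each score. Depth is unknown, so a gene without a chain is not shown to be unbound.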

Other observations

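The chain with the highest score stayed unnamed. It lay on the plus strand of chromosome 21 from 9825630 to 9827583, and its 5 sites scored 11, 10, 60, 133859 and 12 in 5′ to 3′ order. That single site held 84.1% of the summed score of all chains, 159096. Since the labels do not say how reads with several matches were placed, it is unknown whether its reads came from this place. The score is therefore not read as the strongest binding. The next unnamed chains by score were on the plus strand of chromosome 17 from 74557784 to 74563922, with 1615, 5 and 3, and on the plus strand of chromosome 9 from 33657219 to 33659044, with 22, 347, 7 and 7.

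In 2 chains every score was equal. SH3BP4, an endocytic adaptor gene on the plus strand of chromosome 2 from 235943648 to 235950822, held 5 sites that all scored 6, 4 of them within its last 616 nt. LZTS3, on the minus strand of chromosome 20 from 3145212 to 3147762, held 3 sites that all scored 3, the lowest score listed.

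PIEZO1, a mechanosensitive channel gene on the minus strand of chromosome 16, held 2 chains 13989 nt apart. The more 5′ of them scored 4, 19 and 34 and the other 5, 7, 5, 3 and 4. SLC38A2, an amino acid transporter gene, held 5 sites over 12608 nt with scores of 5, 5, 10, 4 and 4, and DHRS2, a dehydrogenase gene, 5 with 7, 6, 4, 3 and 16.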
